A study of Mus musculus with 6 samples.

Results

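Eosinophil ribonucleases and eosinophil marker genes were followed in bone marrow hematopoietic stem cells (HSCs) of Cdk6-/- and wild-type mice. The 8 genes were Ear1, Ear2, Ear6, Ear10 and Rnase2a (the eosinophil-associated ribonucleases), Alox15 (a lipoxygenase), Epx (eosinophil peroxidase) and Prg2 (major basic protein). They were found by matching the transcript accession of every non-control probe to a gene symbol. Each had 1 probe, 8 of 55681 probes in all, and all 8 passed the filter on dim probes, as 8 of the 22630 genes tested. The genes were picked from the ratios of the untreated arrays, so their untreated values, and every difference that uses those values, are given below as descriptions with no test. The ratios on the polyI:C arrays were not the values that picked the genes, and they were tested.

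Each of 6 two-colour Agilent arrays compared 1 Cdk6-/- sample, labelled with Cy5, with a wild-type pool of sorted HSCs that had the matching treatment, labelled with Cy3. There were 3 arrays of untreated Cdk6-/- HSCs against the untreated wild-type pool, and 3 arrays of polyI:C-treated Cdk6-/- HSCs against the polyI:C-treated wild-type pool. PolyI:C mimics viral double-stranded RNA and raises interferon. No source used here gives the dose, the time after treatment, the age and sex of the mice, the surface markers of the sort or the number of mice behind a sample or a pool. The series calls the 3 samples of a group biological replicates. Each pool served on 3 arrays and is 1 control sample, so the spread of its signal is technical. The limma errors, intervals and p-values below therefore leave out variation between wild-type pools, in every test of a ratio or of a difference of ratios. Dyes were never swapped, so a dye bias of a probe cannot be told apart from a genotype difference, although such a bias cancels when ratios of the 2 treatments are compared.

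Eosinophils are granulocytes that develop in bone marrow under interleukin-5 and store a few cytotoxic proteins in large granules. In mice, the Ear genes are a recently expanded branch of the ribonuclease A superfamily, and their products are found in those granules beside eosinophil peroxidase, which makes hypobromous acid, and major basic protein, which forms the granule core. Alox15 oxygenates polyunsaturated fatty acids and is active in eosinophils and in some resident macrophages of mice. In bulk RNA, fewer cells of a type and less RNA per cell cannot be told apart.

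The ribonuclease genes lie on chromosome 14 and resemble each other in sequence. RefSeq promoter windows on GRCm38.p6, from 250 bases before to 50 bases after the annotated start, were held for 6 of the 8 genes, and not for Alox15 or Prg2. Over the 10 pairs of the 5 ribonuclease genes, identity in the aligned overlap of the windows ran from 86.5% (Ear10 and Rnase2a) to 99.0% (Ear1 and Ear2, 294 of 297 bases). The windows of these pairs are printed because they are the least and the most alike. Capitals mark the longest run common to all 5 ribonuclease windows.

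Ear1, chr14:43819590-43819889, minus strand: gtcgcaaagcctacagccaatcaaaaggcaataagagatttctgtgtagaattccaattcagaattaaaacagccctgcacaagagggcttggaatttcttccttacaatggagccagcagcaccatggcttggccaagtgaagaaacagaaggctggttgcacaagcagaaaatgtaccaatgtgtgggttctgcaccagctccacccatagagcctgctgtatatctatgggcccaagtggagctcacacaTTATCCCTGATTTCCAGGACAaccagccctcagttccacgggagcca
Ear2, chr14:44102404-44102703, plus strand: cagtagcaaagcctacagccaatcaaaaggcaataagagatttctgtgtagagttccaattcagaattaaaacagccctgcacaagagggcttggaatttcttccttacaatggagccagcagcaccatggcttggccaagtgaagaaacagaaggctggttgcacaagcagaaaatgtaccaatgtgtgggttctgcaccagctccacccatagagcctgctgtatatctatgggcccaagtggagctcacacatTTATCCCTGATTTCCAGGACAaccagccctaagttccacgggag
Ear10, chr14:43923547-43923846, minus strand: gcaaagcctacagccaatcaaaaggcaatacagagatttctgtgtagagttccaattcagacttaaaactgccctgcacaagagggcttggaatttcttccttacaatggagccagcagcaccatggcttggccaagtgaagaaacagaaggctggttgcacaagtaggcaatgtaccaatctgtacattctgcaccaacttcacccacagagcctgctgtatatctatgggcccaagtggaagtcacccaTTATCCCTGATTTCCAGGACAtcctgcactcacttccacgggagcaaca
Rnase2a, chr14:51256063-51256362, minus strand: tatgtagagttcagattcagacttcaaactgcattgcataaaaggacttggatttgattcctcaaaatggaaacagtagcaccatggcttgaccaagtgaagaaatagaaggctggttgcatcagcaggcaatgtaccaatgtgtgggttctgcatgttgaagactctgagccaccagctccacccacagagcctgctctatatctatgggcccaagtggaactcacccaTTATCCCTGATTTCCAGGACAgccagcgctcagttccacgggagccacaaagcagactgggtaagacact

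The run TTATCCCTGATTTCCAGGACA has 21 bases. Searched on both strands, it occurred in 7 of 32851 windows of the same length (0.0213%), those of the 5 ribonuclease genes here and of their relatives Ear14 and Rnase2b. Its first base lay 4 bases from the annotated start in Ear1, 7 in Ear2, 3 in Ear6 and 2 in Ear10, all downstream, and at -20, upstream, in Rnase2a. The window of Epx, on chromosome 11, did not contain it. A shared run describes these letters only. Near-identical genes can also cross-hybridise, so the 5 ribonuclease probes are not independent measurements, and a signal assigned to one gene may come partly from another.

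The arrays differed in how many spots gave signal. Of 59305 non-control spots, 47.0 to 55.7% were well above background in Cy5 on 5 arrays and 76.5% on polyI:C array 3, with 54.4 to 58.7% and 75.6% in Cy3. PolyI:C array 3, the only one on its slide, also stood apart in its ratios: across genes its correlation was 0.13 with array 1 and 0.22 with array 2 of its group, against 0.56 between arrays 1 and 2. The 11 HSC genes examined (Kit, Slamf1, Mecom, Hlf and others) were well above background in both channels on all 6 arrays. Cdk6 had 1 probe, of unknown position relative to the deletion. It was not above background on the untreated arrays and had log2 ratios of -0.26, -0.44 and -1.28 on the polyI:C arrays (limma adjusted p = 0.259), so it does not check the knockout.

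In untreated HSCs all 8 genes gave a weaker normalized signal in Cdk6-/- samples than in the wild-type pool. The median of the 8 mean log2 ratios was -2.44, against -0.05 over all genes. These are the values that chose the genes. Of the 8, 8 passed limma's threshold as lower and 0 as higher, where 9.93% and 3.05% of all genes did so, and nothing is read from that count.

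Ear1, the gene with the lowest ratio of the 8, had log2 ratios of -2.52, -3.47 and -3.19 on untreated arrays 1, 2 and 3 (mean -3.06, SD 0.49). In signal before background correction, the Cdk6-/- samples gave 7025, 3482.5 and 4205 intensity units and the wild-type pool 14572, 16448 and 13784.5. All 3 pool values were above all 3 Cdk6-/- values. These signals also precede normalization of the dyes, so they do not give the ratios above. Epx on untreated array 3 went the other way before correction, with 778.5 units in the Cdk6-/- sample and 620.5 in the pool. Ear10 had ratios of -2.19, -3.11 and -3.005 (mean -2.77, SD 0.50), and Rnase2a had -2.05, -2.58 and -2.76 (mean -2.46, SD 0.37). Ear6 had ratios of -1.53, -2.81 and -2.71 (mean -2.35, SD 0.71), and Ear2 had -1.90, -2.50 and -2.44 (mean -2.28, SD 0.33). For each ribonuclease, untreated array 1 was nearest to 0 and the other untreated arrays lay close together. By linear fold, the mean ratios of the 5 ribonucleases ranged from 4.86-fold (Ear2) to 8.35-fold (Ear1) lower in Cdk6-/- samples.

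The other markers were low on the same arrays but in a different order. Alox15 had untreated log2 ratios of -3.07, -2.23 and -3.19 (mean -2.83, SD 0.52), with array 2 nearest to 0. Its Cy5 signal was well above background on only 1 of 3 untreated arrays, and it entered the tested genes only through the untreated pool, so its ratio compares a measured pool with Cdk6-/- samples that were mostly at background. Prg2 had ratios of -1.39, -3.64 and -2.21 (mean -2.42, SD 1.14). Epx, the least shifted gene, had -1.18, -2.14 and -0.94 (mean -1.42, SD 0.63). In Epx and Prg2 untreated array 2 was the lowest, and the samples of 1 group differed by over 2 log2 units in Prg2. Among all 22630 genes ordered from the lowest untreated ratio, Ear1 stood at place 4, Alox15 at 5, Ear10 at 7, Rnase2a at 15, Prg2 at 19, Ear6 at 26, Ear2 at 34 and Epx at 417.

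**Figure D1:**
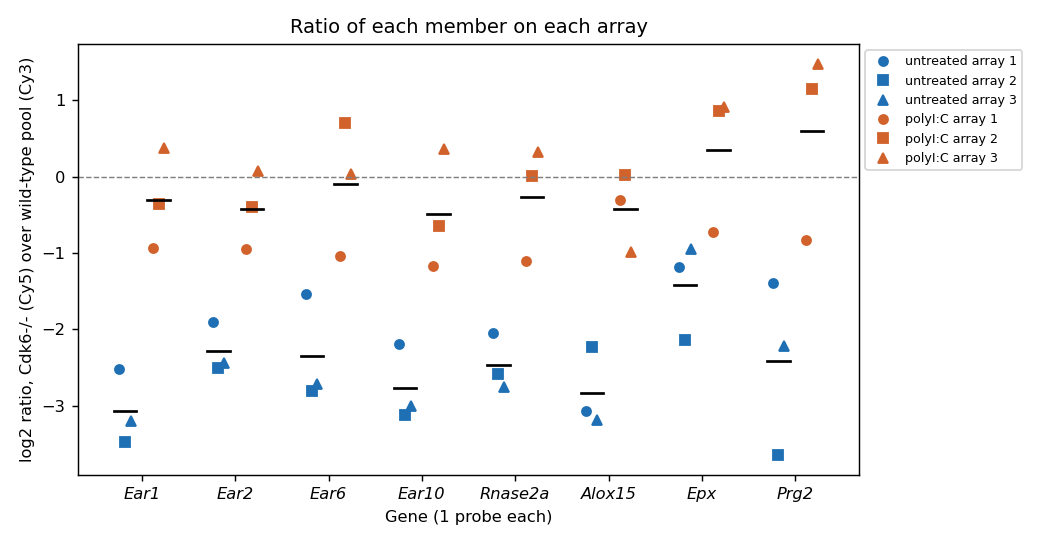
Log2 ratio of Cdk6-/- (Cy5) over the wild-type pool (Cy3) for each of the 8 genes, 1 point per array; black bars are means of 3 arrays, blue is untreated and orange polyI:C. All 3 untreated points lie below all 3 polyI:C points in each gene, and the polyI:C points spread around 0.

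After polyI:C, no ratio of the 8 genes differed from 0 by the test. None passed limma's adjusted threshold, and none had an unadjusted p under 0.05, where 219 of all 22630 genes passed (0.968%) and 3036 (13.4%) had an unadjusted p under 0.05. With every tested probe in the fit in place of 1 per gene, 0 of the 8 probes passed, where 0.673% of all probes did. A p that misses the threshold does not show that genotypes were alike, so the 95% intervals of the mean ratio are given with each gene. These intervals are too narrow for a genotype difference in general, because the polyI:C ratios share 1 wild-type pool. The median of the 8 mean ratios was -0.29, against -0.02 over all genes.

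The ribonucleases had mean polyI:C ratios a little below 0 with wide intervals. Ear1 gave -0.94, -0.36 and 0.37 on polyI:C arrays 1, 2 and 3 (mean -0.31, SE 0.26, interval -0.89 to 0.27, limma adjusted p = 0.666). Ear2 gave -0.95, -0.40 and 0.07 (mean -0.43, SE 0.22, interval -0.92 to 0.07, limma adjusted p = 0.449). Ear10 gave -1.17, -0.65 and 0.36 (mean -0.48, SE 0.28, interval -1.12 to 0.15, limma adjusted p = 0.513). In all of these, array 1 was the lowest and array 3 lay above 0. Rnase2a gave -1.11, 0.00 and 0.32 (mean -0.26, SE 0.27, interval -0.85 to 0.33, limma adjusted p = 0.725). Ear6 gave -1.04, 0.69 and 0.03 (mean -0.10, SE 0.33, interval -0.84 to 0.63, limma adjusted p = 0.927), with Cy5 well above background on 2 of 3 polyI:C arrays. Each of these intervals included 0.

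The granule proteins had mean polyI:C ratios above 0, also within their error. Prg2 gave -0.82, 1.15 and 1.48 (mean 0.60, SE 0.46, interval -0.42 to 1.63, limma adjusted p = 0.628). Epx gave -0.72, 0.86 and 0.91 (mean 0.35, SE 0.33, interval -0.38 to 1.08, limma adjusted p = 0.696), with Cy5 well above background on 2 of 3 polyI:C arrays. For both genes array 1 was below 0 and arrays 2 and 3 above it. Alox15 gave -0.31, 0.02 and -0.99 (mean -0.43, SE 0.25, interval -0.97 to 0.12, limma adjusted p = 0.503), with array 3 the lowest, unlike the other 7 genes, and with each channel well above background on 2 of 3 arrays. On polyI:C array 1 the median of the 8 ratios was -0.94, and on arrays 2 and 3 it was 0.01 and 0.34. Without polyI:C array 1 the median of the 8 means was 0.08, and without polyI:C array 3 it was -0.36. Leaving out polyI:C array 3 gave -0.65 for Ear1, -0.68 for Ear2, -0.91 for Ear10, 0.16 for Prg2 and 0.07 for Epx, with none of the 8 past the threshold.

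**Figure D2:**
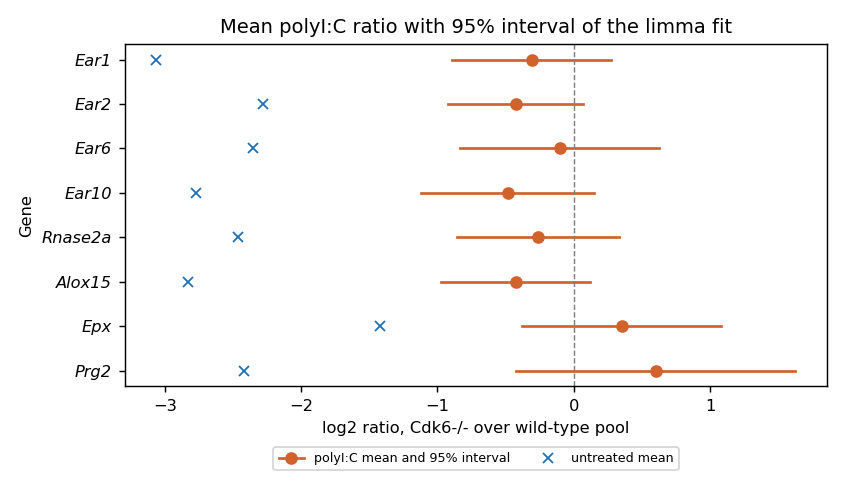
Mean polyI:C log2 ratio of each gene with its 95% interval from the limma fit over 3 polyI:C arrays (orange), and the untreated mean for reference (crosses). Every interval includes 0; the crosses are the values that chose the genes and are not compared with the intervals.

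The difference between treatments was similar in size in most of the 8 genes. All 3 untreated ratios lay below all 3 polyI:C ratios in 8 of 8 genes, where 14.3% of all genes showed that order. The untreated values in this count chose the genes, so it supports nothing. Over all genes 1.79% passed limma's test of this difference, which is not read for the 8. The polyI:C ratio exceeded the untreated ratio by 3.02 log2 units in Prg2 (SE 0.65), 2.75 in Ear1 (SE 0.37), 2.40 in Alox15 (SE 0.35), 2.28 in Ear10 (SE 0.40), 2.25 in Ear6 (SE 0.47), 2.20 in Rnase2a (SE 0.38), 1.85 in Ear2 (SE 0.31) and 1.77 in Epx (SE 0.46). Neighbours in this order differed by less than the larger of their errors. Without polyI:C array 3 the differences of Ear1, Prg2, Alox15 and Epx were 2.41, 2.58, 2.68 and 1.49.

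Slide 1 carried untreated arrays 1 and 3 and polyI:C array 1, and slide 2 carried array 2 of each treatment, so the difference could be read within each without replicates of both treatments. It was positive in all 8 genes on both slides. The untreated ratios in this difference chose the genes, and the share of all genes with that sign was not counted, so the sign supports nothing. Ear1 differed by 1.92 on slide 1 and 3.11 on slide 2, and Alox15 by 2.82 and 2.24. Prg2 differed by 0.98 and 4.79, and Epx by 0.34 and 3.00. Ear6 differed by 1.08 and 3.50. In 7 of the 8 genes the difference was larger on slide 2, and in Alox15 on slide 1. PolyI:C array 3 was alone on slide 3 and gives no such value.

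Taken channel by channel, signal differed more between treatments in the wild-type pools than in the Cdk6-/- samples for all 8 genes. The gap between the 2 channel changes is the difference of ratios given above. It uses the untreated values that chose the genes, so nothing is read from its presence in all 8. In the pool, normalized log2 Cy3 signal of Ear1 was 14.61, 14.91 and 14.54 untreated and 10.99, 11.01 and 10.97 with polyI:C, a mean change of -3.69, or 12.9-fold lower. In Cdk6-/- samples, log2 Cy5 signal of Ear1 was 12.09, 11.43 and 11.35 untreated and 10.05, 10.65 and 11.35 with polyI:C, a change of -0.94. The pool values of the treatments were far apart, and the Cdk6-/- values of untreated array 3 and polyI:C array 3 almost met. Each pool is 1 sample, so its change has no error and no test.

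The same held for the other ribonucleases. Pool signal was 16.1-fold lower with polyI:C for Ear6, 11.7-fold for Ear2, 11.6-fold for Rnase2a and 11.2-fold for Ear10, with log2 changes of -4.01, -3.55, -3.53 and -3.49. The Cdk6-/- changes of these genes were -1.76, -1.69, -1.33 and -1.20. In Cdk6-/- samples the 3 untreated values were above the 3 polyI:C values in 5 of 8 genes, all of them ribonucleases, where 7.71% of all genes showed that order. Those 5 probes are not independent, and their untreated signals entered the choice of genes, so nothing is read from this count. In Ear1 the order rests on untreated array 3 and polyI:C array 3, both at 11.35. For Ear6 the Cdk6-/- values were 10.86, 10.11 and 9.99 untreated and 7.89, 9.61 and 8.18 with polyI:C.

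In the granule genes and Alox15 the Cdk6-/- samples of the 2 treatments overlapped. Prg2 had log2 Cy5 signals of 11.48, 9.41 and 11.13 untreated and 8.33, 10.74 and 11.07 with polyI:C, while its pool signal was 12.5-fold lower after polyI:C. For Epx the Cdk6-/- change was -0.12 and the pool signal was 3.71-fold lower, with untreated Cy3 values of 9.80, 9.84 and 9.81 and polyI:C values of 7.95, 7.87 and 7.96. For Alox15 the Cdk6-/- change was 0.11 and the pool signal was 4.88-fold lower. Alox15 Cy5 signal was well above background on 1 of 3 untreated and 2 of 3 polyI:C arrays, and its polyI:C pool signal on 2 of 3. Its Cdk6-/- change therefore compares values near background and does not show a stable level. Pool signal was lower by over 1 log2 unit in 8 of 8 genes, against 8.12% of all genes, and by over 2 units in 7 of 8, all but Epx, against 1.73%. The untreated pool entered the choice of genes through its ratio, so these counts describe the 8 genes and test nothing. Over all genes the median change was -0.00 in the pools and 0.03 in Cdk6-/- samples.

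**Figure D3:**
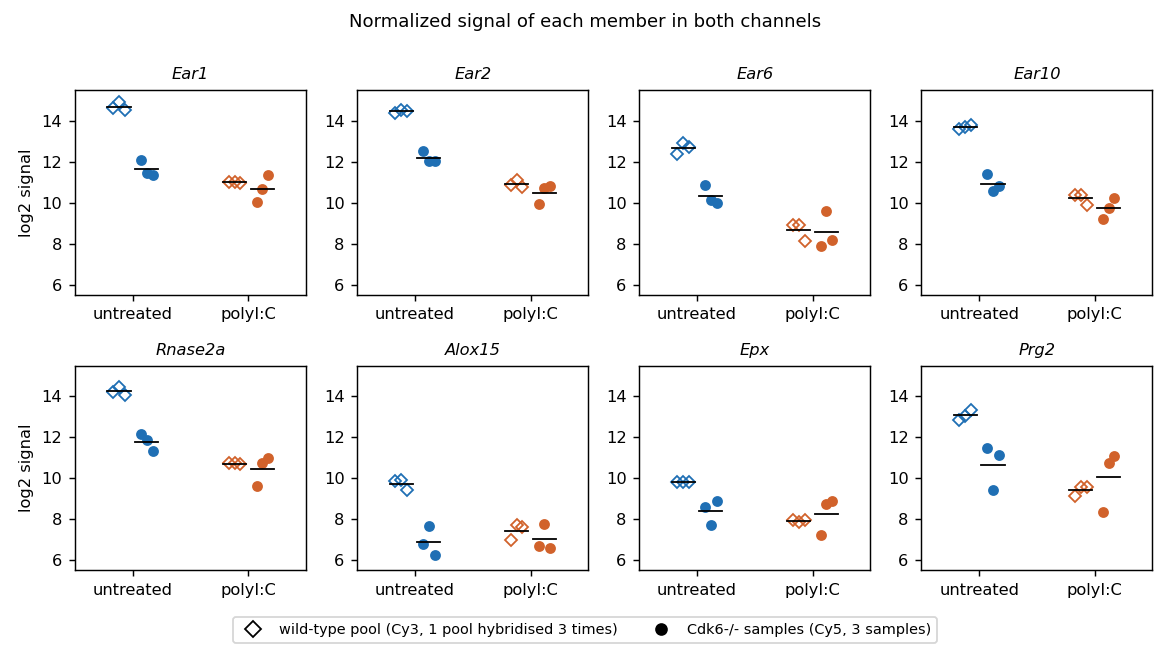
Normalized log2 signal of each gene in Cdk6-/- samples (Cy5) and in the wild-type pools (Cy3), untreated and after polyI:C, 1 point per array. Pool signals of the ribonucleases and Prg2 are over 3 log2 units lower with polyI:C, while Cdk6-/- signals overlap between treatments in Alox15, Epx and Prg2. Alox15 signals in Cdk6-/- samples lie near background. Levels of different probes are not comparable.

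The 8 genes differed in how close their ratios lay to each other across arrays. The measure used counts a constant offset as well as a difference in pattern, and it was not set against the spread within a group. As a measure of likeness, the root mean square difference of log2 ratios over 6 arrays ran from 0.25 (Ear2 and Rnase2a) to 0.69 (Ear1 and Ear6) over the 10 pairs of ribonucleases. Ear1 and Ear2, the pair with the most alike promoter windows, differed by 0.57. The measure was 0.74 between Ear6 and Prg2, 0.85 between Epx and Prg2, 1.32 between Ear1 and Epx and 1.49 between Alox15 and Prg2. The mean of Epx and Prg2 exceeded the mean of the 5 ribonucleases by 0.75, 0.00 and 1.24 untreated and by 0.27, 1.15 and 0.96 with polyI:C. It was lower on 0 of the 6 arrays, and on untreated array 2 the means were the same to 2 decimals.

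Outside the 8, the nearest genes of the 13559 with a symbol were looked up for Ear1, Alox15, Epx and Prg2, by the same measure over 6 arrays. Ear1 was closest to Siglecg (0.52), a sialic acid-binding inhibitory receptor of B cells, then Col6a2 (0.75) and Dcn (0.82), which encode extracellular matrix proteins. For Alox15 the nearest genes included Lepr (0.52), the leptin receptor, and Dcn (0.57). Epx was closest to Ldhc (0.45), Vcan (0.47) and Notch1 (0.49), and Prg2 to Vcan (0.83), Siglecg (0.85) and Olfml3 (0.93). The search left out the 8 genes, so the ribonucleases, Epx and Prg2 could not appear in it, and nothing is read from their absence. Ear1 was closer to Ear10 (0.26) than to any gene found in this search.

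Other genes of eosinophil development and function were examined as a list of 23, of which 20 passed the filter on dim probes and Il5, Ccl11 and Ccl24 did not. In untreated cells 6 of the 20 were lower in Cdk6-/- samples and 0 higher (9.93% and 3.05% of all genes were), with a median ratio of -0.55. After polyI:C 1 was lower (0.650% of all genes were) and 1 higher (0.318%), with a median of 0.34. With arrays centred on their median in place of loess, which shifted the all-gene median to 0.30 untreated and 0.21 after polyI:C, the counts became 1 lower and 2 higher untreated, and 0 lower and 11 higher after polyI:C. The calls in this list therefore depend on the scaling. Its median kept its sign, at -0.22 untreated and 0.76 after polyI:C with median centring.

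Of the receptor, lectin and granule genes in this list, Il5ra and Siglecf passed the threshold in untreated cells. Il5ra, the interleukin-5 receptor chain, had untreated ratios of -0.31, -0.94 and -0.78 (mean -0.68, SE 0.19, limma adjusted p = 0.0440), a call that ended on leaving out any single array but polyI:C array 3, and with slide as a fixed or random block (limma adjusted p = 0.125 and 0.0632). Siglecf, a surface lectin of eosinophils, was lower with ratios of -2.36, -1.45 and -0.50 (mean -1.44, SE 0.30, limma adjusted p = 0.0136), without a call when untreated array 1 or 2 was left out or with slide as a fixed block (limma adjusted p = 0.0772). Its other probe gave -2.87, -1.41 and -2.61. Prg3, a homolog of major basic protein, had -0.66, -0.87 and -0.53 (mean -0.69, SE 0.22, limma adjusted p = 0.0705). Ccr3, the eotaxin receptor, had -1.41, -0.57 and 0.56 (mean -0.47, SE 0.31, limma adjusted p = 0.360). After polyI:C, the mean ratios of Il5ra, Siglecf, Prg3 and Ccr3 were -0.25, -0.51, 0.24 and 0.47, none past the threshold. Ccr3 signal was well above background on 2 of 3 polyI:C arrays in Cy5 and on 1 of 3 in Cy3.

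Among regulators and enzymes, Spi1, the myeloid factor PU.1, was lower in untreated Cdk6-/- cells at -1.09, -1.01 and -1.63 (mean -1.24, SE 0.18, limma adjusted p = 0.0030), in each fit that left out 1 array. With median centring its mean was -0.52, past no threshold. Alox5, the enzyme that starts leukotriene synthesis, had a mean of -1.10 (SE 0.23, limma adjusted p = 0.0125), and Id2, an inhibitor of basic helix-loop-helix factors, -0.79 (SE 0.19, limma adjusted p = 0.0226). Both calls ended without untreated array 1 or 3, and with slide as a fixed block (limma adjusted p = 0.0762 and 0.0531). Gata1, a factor that eosinophils share with red cells and mast cells, had a mean of -0.67 (SE 0.19, limma adjusted p = 0.0441), a call that held only without polyI:C array 3 among the 6 fits that left out an array. It ended with slide as a fixed or random block (limma adjusted p = 0.159 and 0.0704). Gata2 stood at 0.32 and Cebpe, a factor of late granulocyte maturation, at -0.87 (limma adjusted p = 0.0505).

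After polyI:C, Trib1, a pseudokinase that promotes breakdown of the C/EBP-alpha protein, was higher in Cdk6-/- samples at 1.08, 1.11 and 2.45 (mean 1.55, SE 0.28, limma adjusted p = 0.0362). Csf2rb2, a mouse receptor subunit for interleukin-3, was lower at -0.94, -1.13 and -0.94 (mean -1.002, SE 0.18, limma adjusted p = 0.0346). The call of Trib1 ended on leaving out untreated array 1 or 3 or any polyI:C array, and that of Csf2rb2 on leaving out untreated array 1 or any polyI:C array, or with slide as a fixed block (limma adjusted p = 0.0680). Cebpe and Gata2 had polyI:C ratios of 0.87 and 0.14, neither past the threshold.

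Other ribonuclease A superfamily genes were examined in a list that also held Rnh1, the cytosolic inhibitor that binds these ribonucleases. Of 21 listed genes, Rnh1 among them, 13 had a probe and 6 passed the filter, with a median ratio of 0.11 both untreated and after polyI:C. Rnase4, a secreted ribonuclease, was lower in untreated Cdk6-/- cells, at -1.01, -1.07 and -1.53 (mean -1.21, SE 0.18, limma adjusted p = 0.0033), but it passed the filter only through the untreated pool. Its Cy5 signal was well above background on 1 of 3 untreated arrays, so this ratio, like that of Alox15, sets a measured pool against samples mostly at background. None of the 6 passed the threshold after polyI:C, although 1 was higher with median centring. Rnase6 had mean ratios of -0.45 and -0.09, and Rnh1 had 0.39 and 0.02. Rnase2b, whose promoter holds the shared run, was too dim to test.

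**Figure D4:**
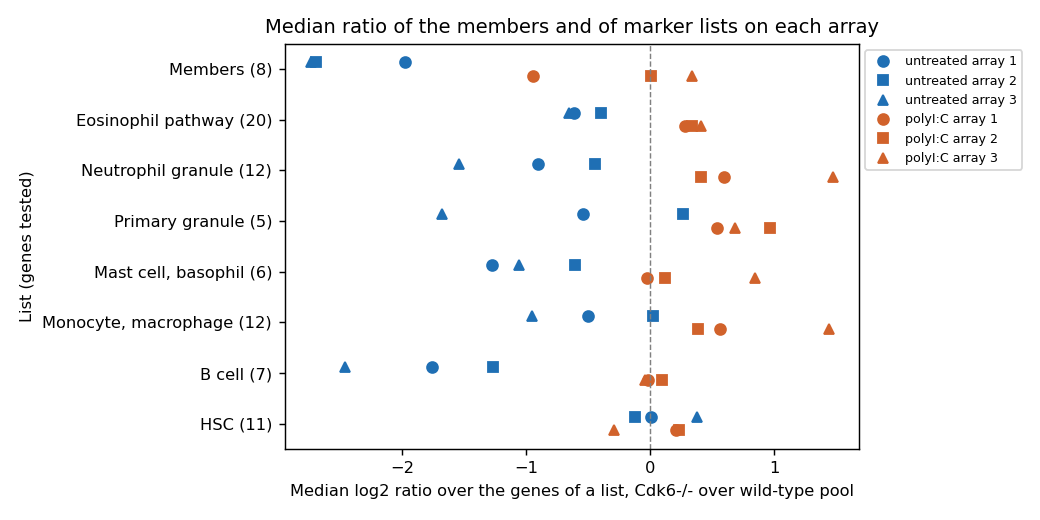
Median log2 ratio over the tested genes of each list (number in brackets), 1 point per array, untreated in blue and polyI:C in orange, with the 8 eosinophil genes as members in the top line. Their untreated medians, -1.98, -2.69 and -2.73, are each the lowest of the lists drawn for that array. The 8 genes were picked from untreated ratios, so nothing is read from that order. Neutrophil granule and monocyte medians change with scaling. They go from -0.99 to 0.20 and from -0.48 to -0.03 when untreated arrays are centred on their median.

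Markers of other blood cells moved on the same arrays. Over all genes, 9.93% were called lower and 3.05% higher untreated, and 0.650% and 0.318% after polyI:C. The 12 neutrophil granule genes had a median ratio of -0.99 untreated (7 lower, 0 higher) and 0.88 after polyI:C (0 called), and their median pool change with polyI:C was -2.38 log2 units, from per-array medians of 15.41 to 15.71 down to 13.21 to 13.63. All 7 B cell genes were lower in untreated Cdk6-/- samples (median -1.63), 0 were called after polyI:C (median -0.00), and the median pool change was -2.77. The 6 tested mast cell and basophil genes had a median of -0.93 untreated (3 lower) and 0.17 after polyI:C (0 called). Ms4a2, Cma1 and Mcpt4 were too dim to test. Of the 3 lower, Cpa3 and Fcer1a had Cy5 signal well above background on 0 of 3 untreated arrays. Both were named after their values were seen. The 12 monocyte and macrophage genes had medians of -0.48 (2 lower) and 0.82 (1 higher, the scavenger receptor gene Marco, named after its value was seen). Of the 2 lower, Ccr2, also named after its value was seen, passed the filter only through the untreated pool. Its Cy5 signal was well above background on 1 of 3 untreated arrays. The 5 primary granule genes had medians of -0.60 and 0.74 with 0 called. The 11 HSC genes had medians of 0.17 and -0.07, with 0 called in either treatment.

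Median log2 Cy5 signal of the neutrophil genes was 14.43 to 14.98 on untreated and 14.07 to 14.72 on polyI:C arrays, that of the B cell genes 8.28 to 9.85 and 7.32 to 7.87. The part of these other cell types in the values of the eosinophil genes was not tested. With median centring of arrays, the median of the 8 genes was -1.90 untreated. That of the B cell genes was -1.29, that of the mast cell and basophil genes -0.95, and the neutrophil granule median 0.20. The 8 genes were picked from untreated ratios, so their place among these medians is not read. Calls changed too. Untreated, 1 of the 12 neutrophil granule genes was then lower and 2 higher, and 5 of the 11 HSC genes were higher. After polyI:C, 11 neutrophil granule, 8 monocyte and macrophage and 4 primary granule genes were higher with this scaling.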

How the data were processed

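Per the labels' protocols, RNA went through whole transcriptome amplification before labelling with platinum dyes. The authors' deposited scanner files, read with Agilent Feature Extraction 11.5.1.1 per the file headers, give each spot's median intensity with that of its background, processed signals (also intensity), a log10 ratio of red to green used only for direction, and spot flags. The deposited value table is in log2 and equals the log2 ratio of processed Cy5 to Cy3 within 2.52e-06 over 55249 probes (column medians 0.22, 0.12, 0.20 untreated and 0.22, 0.18, -0.04 polyI:C). The build named in the headers is mm9.

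Median signals were corrected with normexp (offset 50) and loess-normalized within arrays in limma 3.58.1 under R 4.3.3; statmod 1.5.0 served the random block. Flagged spots (0.657%) and controls were left out. A probe was tested if either channel was well above background on every array of 1 group or more (31802; 23879 were dim), with the brightest probe per gene. Symbols came from RefSeq, where 22240 of 23839 accessions matched. One fit (lmFit, eBayes) of 6 arrays with a mean per group left 4 residual degrees of freedom. Adjusted p-values are limma's (Benjamini and Hochberg over 22630 genes, threshold 0.05). Channel levels were taken after normalization between arrays. With 3 against 3 arrays the smallest exact permutation p is 0.1. Precision is limited by the number of arrays, by signal near background and by the lack of replicate wild-type pools.

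The 8 genes, the lists and the rule for named genes were chosen with earlier results of these data known. That rule names the 8 genes, every list gene past the threshold, 10 genes regardless of outcome (Il5ra, Ccr3, Siglecf, Prg3, Gata1, Gata2, Cebpe, Rnase4, Rnase6, Rnh1), and the 3 genes nearest to each of Ear1, Alox15, Epx and Prg2, of which 1 is not reported here. On simulated data with 22505 genes, the polyI:C fit called 44 of 100 genes changed by -1 log2 unit, 97 of 100 changed by -3, and 6 of 22305 unchanged ones. The simulated noise was independent between arrays, with no shared pool, dye bias or slide effect. These counts therefore check the fit and do not give its error rate on the real arrays. Alternatives were other background corrections, scalings, filters and probe rules, slide as a block, and leaving out arrays.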

Additional observations from a re-analysis of the deposited data

Results flagged for a closer look

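In 6 genes of the eosinophil pathway and ribonuclease A lists, outside the 8, the genotype ratio differed between treatments by limma's test of that difference. The test leaves out variation between wild-type pools. The differences, polyI:C minus untreated in log2 units, were 2.08 for Alox5 (SE 0.32, limma adjusted p = 0.0172), 1.59 for Spi1 (SE 0.26, limma adjusted p = 0.0190), 1.56 for Id2 (SE 0.27, limma adjusted p = 0.0216), 1.56 for Rnase4 (SE 0.26, limma adjusted p = 0.0190), 1.75 for Cebpe (SE 0.36, limma adjusted p = 0.0440) and 1.09 for Cebpa, named after its value was seen (SE 0.23, limma adjusted p = 0.0462). Rnase4 passed the filter only through the untreated pool: it was well above background on 1 of 3 arrays in untreated Cy5, 2 of 3 in polyI:C Cy5 and 1 of 3 in polyI:C Cy3, so its difference compares signals mostly near background. Over all genes 1.79% passed this test, as did 6 of the 12 neutrophil granule genes, 3 of the 7 B cell genes and 1 of the 12 monocyte and macrophage genes. The part of those cell types in the 6 differences was not tested. All 3 polyI:C ratios were above all 3 untreated ratios in each of the 6. None of the 6 passed without polyI:C array 3 (values from 1.06 to 1.86), without untreated array 3 (1.16 to 1.996), or with slide as a fixed block.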

How the results depend on the processing

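No call in the polyI:C ratio of the 8 genes appeared under any of the 15 alternatives; the lowest limma adjusted p was 0.195, for Ear10. The sign of that uncalled ratio changed in 1 alternative for Ear1 and in 2 each for Ear6 and Rnase2a. Centring arrays on their median moved the median untreated ratio of the 8 genes to -1.90 and the counts of called genes from 2939 to 6206 untreated, from 219 to 2583 after polyI:C and from 406 to 241 for the difference; the eosinophil list then had 1 lower and 2 higher genes untreated and 0 lower and 11 higher after polyI:C, and the ribonuclease A list 1 higher. Genes called in the list, with 6 lower untreated, 1 lower and 1 higher after polyI:C in the report, were 2 lower and 0 lower with the arrays of a group fitted alone, 1 lower and 0 lower with slide as a fixed block, and 2 lower, 0 lower and 0 higher without both arrays numbered 3, an alternative chosen after seeing the data. After polyI:C 0 were lower with the mean over probes, and 0 lower and 0 higher with processed signals or with no filter on dim probes. Leaving out 1 array at a time gave 2 to 7 lower untreated, and 0 to 2 lower and 0 to 2 higher after polyI:C. Called genes over the whole table after polyI:C were 34 with processed signals, 94 with no dim filter, 84 with the group's arrays alone, 7 without polyI:C array 1, 21 without polyI:C array 2 and 0 without both arrays numbered 3. For the difference they were 179 with processed signals, 253 with no dim filter, 177 without untreated array 1, 67 without untreated array 3, 100, 86 and 6 without polyI:C arrays 1, 2 and 3, and 0 with slide as a fixed block or without both arrays numbered 3. Untreated they were 1770 with the group's arrays alone, 1376, 1630 and 1509 without untreated arrays 1, 2 and 3, and 1638 without both arrays numbered 3. With processed signals Alox15, mostly at background in untreated Cdk6-/- samples, had an untreated ratio of -4.07. Apart from leaving out arrays, which leaves fewer samples, the cause of these changes was not tested. With slide as a random block (correlation 0.15) the untreated calls of Il5ra and Gata1 ended. No paired analysis was possible because the labels carry no shared replicate numbers; slide was the only block fitted.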
